A study of Mus musculus with 15 samples.

Results

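The genes described here encode the enzymes that join glutathione, glucuronic acid or a sulfate group to drugs, steroids, bilirubin and reactive lipids. Members were protein-coding genes whose symbol begins with Gst and a class letter (a, m, p, t, k, o or z) and a number, with Ugt1, Ugt2 or Ugt3, or with Sult and a number. The rule found 64 of the 54532 genes in the tables, made up of 22 glutathione S-transferases (GST), 21 UDP-glucuronosyltransferases (UGT) and 21 sulfotransferases (SULT), and left out 7 pseudogenes with matching symbols. Whole-tissue RNA sequencing was available for the liver and lung of wild-type male C57BL/6J mice, an inbred strain, which the labels describe as 28 weeks old. One diet group (CS) received a control feed and the other (PS) the same feed with 2% phytosterols, a mix of plant sterols that was mostly β-sitosterol, campesterol and stigmasterol. The liver set held 4 CS and 5 PS mice, the lung set held 3 CS and 3 PS mice, and 6 mice gave both tissues. No transgene, deletion or drug was used, and each library came from 1 mouse.

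Conjugation is the second phase of detoxification. GST enzymes attach the tripeptide glutathione to electrophiles, UGT enzymes of the endoplasmic reticulum transfer glucuronic acid from UDP-glucuronic acid, and cytosolic SULT enzymes transfer sulfate from the donor PAPS, so that the products dissolve in water and can be pumped into bile or urine. Hepatocytes are the main site of all these reactions, the airway lining carries out some of them, and many of the genes respond to the oxidative stress factor NRF2 or to the receptors CAR, PXR and AHR.

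The libraries held 14410117 to 17625179 counted fragments in the liver and 17934930 to 19396057 in the lung. The albumin-led set of 8 hepatocyte markers summed to 80718 to 129739 CPM (the counts of a gene as a share of its library, scaled by the TMM method within a tissue) in the livers and to 29.4 to 152 CPM in the lungs, and the 5 club cell markers of the airway summed to at least 36406 CPM in every lung, so the tissue labels held. CS replicate 2 and PS replicate 1 of the liver had the fewest genes detected (15961 and 16207, against 18250 to 19598 in the other livers). CS replicate 2 also stood apart in GC content. Its expression rose with the GC content of genes by 0.575 log2 units from the 5th to the 95th percentile, against -0.39 to 0.13 in the other livers. In whole tissue, fewer cells of a type and less RNA per cell cannot be told apart. Gene models shared by neighbours also limit the counts, because the authors' featureCounts settings for shared bases and for strand were not given in the sources used here.

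Enough counts for a test were present for 43 members in the liver (19 GST, 16 UGT and 8 SULT) and for 27 in the lung (20 GST, 3 UGT and 4 SULT), and 47 could be fitted in both tissues together. The remaining 17 members entered no fit. No fragment was counted for 9 members in any liver, for 15 in any lung and for 7 in any library at all, the last being Sult1c1, Sult2a4, Sult2a5, Sult2a6, Ugt1a8, Ugt2a1 and Ugt2a2.

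Levels are compared between genes as RPKM, the CPM per kilobase of gene length, on a scale shared by both tissues and given as mean ± SD over 9 livers or 6 lungs. Gstm1, the main mu-class GST of mouse liver, led with 1174 ± 465 RPKM, followed by the pi-class gene Gstp1 with 1017 ± 552 RPKM. The ranges of these genes over the livers overlapped, so their order was not resolved. Sult1a1, which sulfates phenols, had 551 ± 124 RPKM, and Ugt2b5, a UGT of steroid hormones, had 431 ± 79.3 RPKM. Behind them came Gstt1 of the theta class (359 ± 122 RPKM), the hydroxysteroid and bile acid sulfotransferase Sult2a8 (335 ± 77.7 RPKM) and Gsta3 of the alpha class (310 ± 117 RPKM). Each subfamily thus had its own leading gene. Gstz1, whose product also isomerizes maleylacetoacetate in tyrosine breakdown, had 201 ± 24.4 RPKM, Gstk1, the kappa-class enzyme of mitochondria and peroxisomes, had 178 ± 32.3 RPKM, and Ugt3a2, which uses other sugars than glucuronic acid, had 132 ± 45.9 RPKM. In the ranked list, neighbouring members overlapped in range from Gstm1 down to Ugt2b34. The first neighbours without overlap were Ugt2b34 in place 15 (lowest liver 91.4 RPKM) and Gsto1 in place 16 (highest liver 79.3 RPKM). This sets no group of members apart, since Gstm6 and Gstm2, with means below that of Gsto1, reached 96.0 and 97.6 RPKM. The Ugt1 subfamily was led by Ugt1a1, the bilirubin-conjugating enzyme, with 28.6 ± 18.9 RPKM, and Sult5a1 and Sult3a1 were low at 2.35 ± 0.94 and 1.03 ± 1.69 RPKM. Sult4a1 and Sult6b1 stayed below 0.2 RPKM in every library.

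**Figure D1:**
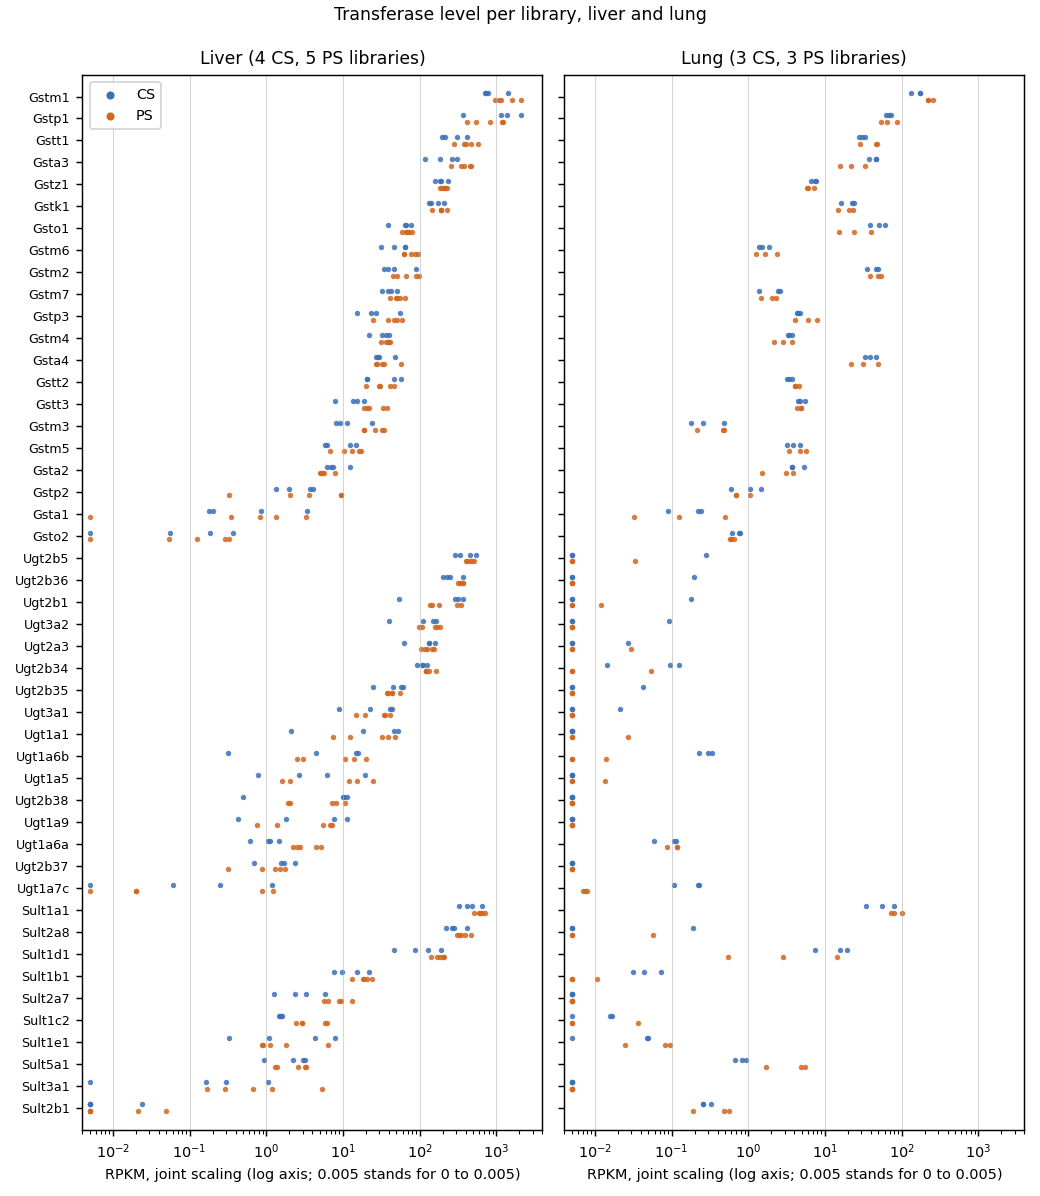
Level of the 47 members fitted in both tissues, in RPKM on a log axis, with 1 point per library (liver panel, 4 CS and 5 PS; lung panel, 3 CS and 3 PS); the left edge stands for values from 0 to 0.005. In the liver GST, UGT and SULT genes all reach over 100 RPKM, whereas in the lung the UGT points lie at the low end.

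In the lung the order was different and most of the list was low. Gstm1 again led, with 197 ± 44.6 RPKM, and its lowest lung (132 RPKM) stood above the highest lung of the next gene, Sult1a1 (101 RPKM). Gstp1 had 68.2 ± 10.9 RPKM, and Gsto1, an omega-class thiol transferase that also reduces dehydroascorbate, had 38.4 ± 16.9 RPKM. The alpha-class gene with the highest mean was Gsta4, whose product conjugates the lipid peroxidation product 4-hydroxynonenal, with 36.7 ± 9.89 RPKM over all lungs. Its range overlapped that of Gsta3, which had the higher mean in the CS lungs (43.1 against 39.4 RPKM for Gsta4) and the lower in the PS lungs (23.6 against 34.0 RPKM). Gstt1 (35.7 ± 8.94 RPKM), Gstk1 (20.3 ± 3.90 RPKM) and Gstz1 (6.80 ± 0.75 RPKM) completed the GST classes. Sult5a1 had 2.41 ± 2.16 RPKM, and the leading Sult2 gene was the cholesterol sulfotransferase Sult2b1 with only 0.346 ± 0.148 RPKM. No Ugt gene reached 1 RPKM on average, and the highest was Ugt1a6b in the CS lungs (0.286 ± 0.0535 RPKM) and Ugt1a6a in the PS lungs (0.107 ± 0.0177 RPKM).

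Comparing lung with liver over both diets, 42 of 47 members were lower in the lung at an edgeR adjusted p under 0.05 (34.4% of all genes tested were lower) and 2 were higher (42.3% of all genes were higher). All 16 UGT, 18 of 21 GST and 8 of 10 SULT members tested were lower. The median log2 difference, lung minus liver, was -2.81 for GST, -6.44 for SULT and -11.92 for UGT genes, against 0.17 for all genes. These counts and medians are partly fixed by the filter on low counts, which 25 members passed in both tissues taken alone. Another 18 (13 UGT and 5 SULT, with at most 22 fragments in any lung) passed it in the liver only. The lung alone let in 2 (Sult2b1 and Gsto2), and 2 passed in the joint fit only. Among the 25, of which 19 were GST, 3 SULT and 3 UGT, 22 were lower and 0 higher with a median of -3.17. Their class medians were -3.11 for GST, -2.96 for SULT and -4.24 for UGT genes, closer together than those above. Of the 12398 genes that passed in both tissues, 41.3% were lower, 31.6% were higher and the median was -0.18. The higher members were Sult2b1 (log2 difference 5.00, SE 0.62, edgeR adjusted p 1.42e-06) and Gsto2 (2.10, SE 0.55, adjusted p 0.00232). Gsta4 (0.09, SE 0.21), Gstm2 (-0.42, SE 0.23) and Sult5a1 (-0.38, SE 0.31) were not called. These calls depend on how the tissues are scaled, because library totals in place of TMM factors shifted the median of all genes to 1.55, which gave 6 higher and 36 lower members and reversed the call of Gsto1 from lower (-0.85, SE 0.20, edgeR adjusted p 0.00105) to higher (0.53, adjusted p 0.0144). Under that scaling Gsta4 (1.48), Gstm2 (0.97) and Sult5a1 (1.02) became called as higher too, while Gsta2 (-1.01 to 0.39) and Gstm5 (-1.38 to 0.02) lost their calls with a change of sign.

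The largest fitted differences were those of Ugt2b36 (-14.33, SE 0.67), Ugt3a2 (-13.93), Ugt2b1 (-13.52), Ugt2b5 (-13.46) and Ugt2a3 (-13.29), all of them genes of hepatocyte glycosyl transfer with 20 or fewer lung fragments. Their order is not stable, since leaving out 1 library at a time moved Ugt2b36 between -16.50 and -14.00, Ugt2b5 between -15.83 and -13.16 and Ugt2b1 between -15.80 and -13.22, with the lowest values of all 3 when CS replicate 1 of the lung was omitted, where Ugt2b36 has no lung fragment left. For members with no fragment in any lung a limit can be set, with 3 counts over the 6 lungs as the floor. By it the liver level was at least 855-fold higher for Ugt2b38, 685-fold for Ugt1a9, 525-fold for Sult2a7, 167-fold for Ugt2b37 and 78.0-fold for Sult3a1. The remaining lung counts of several liver genes came mostly from a single library. CS replicate 1 of the lung held all 14 fragments of Ugt2b36, all 10 of Ugt3a2 and all 5 of Ugt2b35, and 18 of 20 of Ugt2b5, 16 of 17 of Ugt2b1 and 22 of 28 of Sult2a8. Others were spread over more lungs, as Ugt2b34 with 19, 14 and 2 fragments in CS and 7, 0 and 0 in PS, and Sult1b1 with 3, 7 and 4 in CS and 0, 0 and 1 in PS. CS replicate 1 also had 1177 albumin fragments, against 6 to 186 in the other lungs. Its albumin level was 0.0333% of the liver mean, and the hepatocyte markers other than Trf ran from 0.0308% (Ttr) to 0.0701% (Fgb) there. Trf did not follow, with 1.14% in CS replicate 1 and more in PS replicates 1 (2.08%) and 2 (1.39%) of the lung. The 6 members named above for CS replicate 1 had 0.0574% to 0.0942% of their liver means in it. The part of liver RNA in these fragments was not tested.

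In the liver, no member passed an edgeR adjusted p of 0.05 for diet, and among all genes 0.00758% were called higher and 0% lower. At an unadjusted p of at most 0.05, 7 members were higher in PS (3.96% of all genes were) and 0 were lower (3.58% of all genes were). They were Ugt1a6a, Sult1c2, Sult2a7, Gstt3, Gsta3, Gstm3 and Gstm6. Of the 43 tested, 31 had a log2 fold change above 0, and the median was 0.27 against -0.03 for all genes. The GST members had 16 of 19 above 0 (median 0.36), the SULT members 6 of 8 (median 0.43) and the UGT members 9 of 16 (median 0.12). Cell type marker sums are given beside these values, with no test. The 8 hepatocyte markers summed to a median of 94745 CPM in CS (80718 to 124758) and 121816 CPM in PS (94900 to 129739), the 5 macrophage markers to 145 (129 to 199) and 93.6 CPM (49.0 to 144), and the 5 endothelial markers to 58.4 (48.9 to 70.0) and 31.6 CPM (23.2 to 59.2). The 5 fat cell markers, of which Cidec made up most of the sum and Lep was at 0 in all livers but CS replicate 1, summed to 22.54 to 73.3 CPM in CS and 5.25 to 22.17 CPM in PS, with no overlap. The 6 cholangiocyte markers had medians of 49.5 and 50.5 CPM. Apart from the fat cell list, all these sums overlapped between the diets. Their part in the member values was not tested. Ugt1a6a and Sult1c2 were also the only members whose PS livers all lay above all CS livers, a pattern shown by 2.1% of all genes, and 0 members had all PS livers below all CS livers (1.53% of all genes).

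Ugt1a6a (chr1:88134809-88218997, plus strand, mm10) encodes an enzyme that glucuronidates small planar phenols and is known as a target of AHR. It had 3.26, 1.89, 3.13 and 4.23 CPM in the CS livers and 13.4, 7.96, 15.4, 6.52 and 7.29 CPM in the PS livers. Every PS liver was above every CS liver, and replicates 1 and 3 were the highest of the PS group. The log2 fold change was 1.69 (SE 0.34, edgeR adjusted p 0.135), and the means were 3.13 ± 0.96 (SD, n = 4) and 10.1 ± 4.02 CPM (n = 5). DESeq2's Wald test called Ugt1a6a and Sult1c2 at its adjusted threshold, and edgeR without the filter on low counts called Ugt1a6a.

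Sult1c2, a phenol sulfotransferase (chr17:53829637-53846339, minus strand, mm10), had 2.04, 1.95, 1.92 and 1.92 CPM in the CS livers and 3.09, 7.73, 7.29, 3.65 and 3.71 CPM in the PS livers. The control values were close to each other, and all PS livers lay above them, with replicates 2 and 3 the highest. Its log2 fold change was 1.38 (SE 0.34, adjusted p 0.232 by edgeR). Sult2a7, of the bile acid and steroid sulfotransferase subfamily, had 1.10, 2.96, 2.09 and 4.93 CPM in CS and 8.34, 11.3, 7.81, 4.89 and 5.504 CPM in PS. The groups overlapped at 1 point, since CS replicate 4 reached the lowest PS liver, and the log2 fold change was 1.45 (SE 0.41, edgeR adjusted p 0.341).

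The GST members that passed the unadjusted threshold belonged to the theta, alpha and mu classes. Gstt3 had 20.3, 51.5, 39.9 and 34.3 CPM in CS and 50.6, 96.1, 87.6, 52.6 and 57.0 CPM in PS (log2 fold change 0.91, SE 0.29, edgeR adjusted p 0.424). CS replicate 2 alone reached the PS range, and 524 bases of the Gstt3 exons are shared with the same-strand gene model Gm20441. Gsta3, the most abundant alpha-class gene, which protects the mouse liver from aflatoxin epoxide (chr1:21240589-21265661, plus strand, mm10), had 548, 362, 781 and 905 CPM in CS and 769, 1362, 1036, 1321 and 1125 CPM in PS. Replicate 1 was the lowest PS liver and lay between CS replicates 1 and 3, and the log2 fold change was 0.79 (SE 0.28, edgeR adjusted p 0.489). The mu-class genes lie together on chromosome 3, Gstm3 at chr3:107963696-107969283 and Gstm6 at chr3:107938847-107943749 (minus strand, mm10). Gstm3 had 7.28, 22.5, 9.98 and 7.94 CPM in CS and 29.1, 23.0, 31.1, 16.5 and 17.0 CPM in PS (0.97, SE 0.35, adjusted p 0.510 by edgeR). Its high control liver was again CS replicate 2, and Gstm3 was the member called at an adjusted p under 0.05 once that liver was left out. Without it, 12 members were higher and 1 was lower at the unadjusted threshold. Calls over all genes rose as well, to 1039 higher and 852 lower of 13368, against 523 and 473 of 13195 with all livers. At the adjusted threshold 43 genes were higher and 22 lower in that fit. Gstm6 had 42.8, 91.5, 62.2 and 86.2 CPM in CS and 132, 117, 104, 84.4 and 85.4 CPM in PS (0.57, SE 0.25, edgeR adjusted p 0.638).

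**Figure D2:**
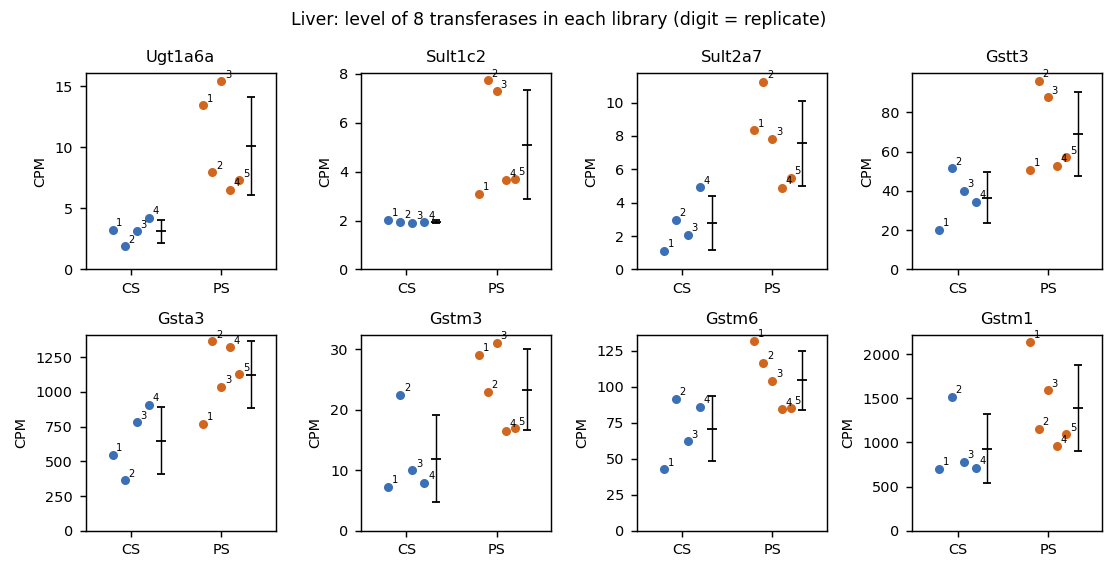
CPM of 8 members in each liver (CS, n = 4; PS, n = 5), with the digit giving the replicate and the bar the mean ± SD. Ugt1a6a and Sult1c2 have no overlap between diets, and CS replicate 2 is the highest CS liver for Gstt3, Gstm3, Gstm6 and Gstm1.

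In the abundant Gstm1 the highest CS liver was again CS replicate 2. Gstm1 had 704, 1513, 783 and 714 CPM in CS and 2140, 1157, 1589, 954 and 1094 CPM in PS. All PS livers were above the other 3 CS livers, and CS replicate 2 lay within the PS range. The fitted log2 fold change was 0.58 (SE 0.31, edgeR adjusted p 0.719). Omitting 1 liver at a time moved it between 0.37 and 0.92, and the lowest edgeR adjusted p was 0.156. Members with a value below 0 included Gstp1 (-0.57, SE 0.44) and Gsta2 (-0.52, SE 0.26), neither of which passed the unadjusted threshold over all livers. Omitting 1 liver at a time moved Gsta2 between -0.65 and -0.27, with an unadjusted edgeR p as low as 0.0306. The reads of Gsta2 may be split with Gsta1, its 97.2% identical neighbour over 870 bases, as those of Gstp1 may be with Gstp2 (98.2% over 707 bases).

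**Figure D3:**
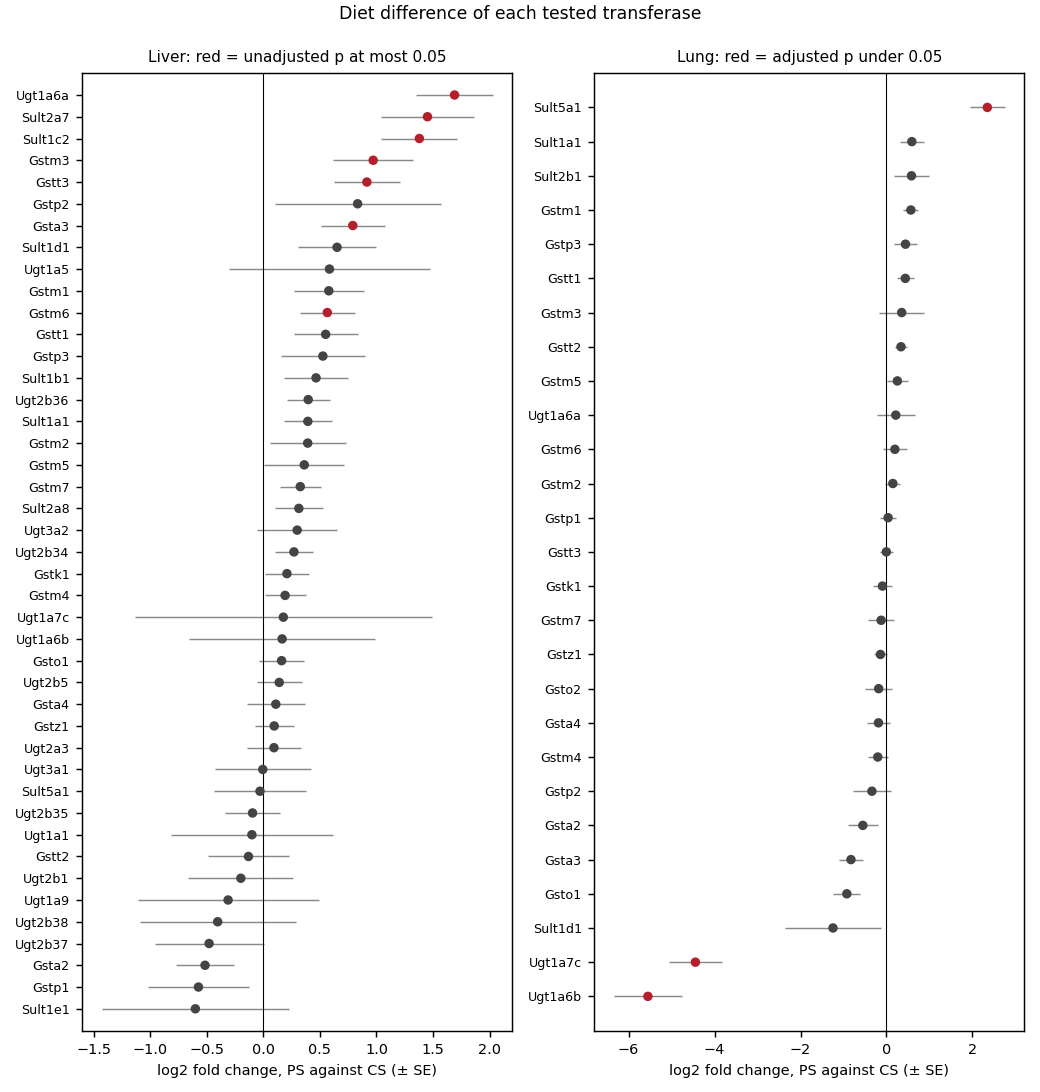
Log2 fold change, PS against CS, with its SE for the 43 members tested in the liver and the 27 tested in the lung. Red marks members at an unadjusted p of at most 0.05 in the liver (7, all above 0) and at an adjusted p under 0.05 in the lung (Sult5a1 above 0, Ugt1a6b and Ugt1a7c below).

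Added up, the GST members gave 3858 ± 571 CPM in CS and 4914 ± 492 CPM in PS livers, a ratio of means of 1.27. The SULT members gave 1373 ± 323 and 1811 ± 90.8 CPM (ratio 1.32), and the UGT members gave 2324 ± 657 and 2569 ± 444.1 CPM (ratio 1.11). These sums are dominated by the abundant genes named above, and no test was made of them. In the lung the GST sum was 1540 ± 188 CPM in CS and 1549 ± 194 CPM in PS (ratio 1.01), the SULT sum 222 ± 88.2 and 289 ± 27.6 CPM (ratio 1.30) and the UGT sum 5.02 ± 1.35 and 1.19 ± 0.21 CPM (ratio 0.238).

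Among livers of the same diet, part of the UGT genes varied widely, which is given as a description with no test. The median within-diet SD of log2 CPM was 0.80 for the 16 UGT members, 0.54 for SULT, 0.46 for GST and 0.43 for all genes tested. The widest members were Ugt1a7c (SD 2.25), Ugt1a6b (1.90), Ugt1a5 (1.80), Ugt1a9 (1.70) and Ugt1a1 (1.61), and only 0.561% of all genes were as wide as Ugt1a1. At the other end, Ugt2b34 (0.17), Ugt2b36 (0.23), Ugt2b5 (0.26), Ugt2a3 (0.39) and Ugt2b35 (0.39) were narrower than the median of all genes. Ugt1a1 had 69.9, 3.37, 78.5 and 27.3 CPM in the CS livers and 11.4, 57.5, 19.0, 71.3 and 49.4 CPM in the PS livers. The highest and lowest livers, 23.3-fold apart, were both CS, and the diet groups overlapped almost completely (log2 fold change -0.10, SE 0.72). Ugt1a6b was 58.9-fold, Ugt1a5 29.9-fold and Ugt1a9 24.98-fold apart between extreme livers. In 11 of the 43 members the 3 lowest livers were CS replicate 2 and PS replicates 1 and 3, a share of 25.6% against 12.8% of all genes. All 11 were UGT genes (Ugt1a1, Ugt1a5, Ugt1a6b, Ugt1a9, Ugt2a3, Ugt2b1, Ugt2b35, Ugt2b37, Ugt2b38, Ugt3a1 and Ugt3a2), and this set of livers was chosen after the values were seen. Ugt1a6a did not share the pattern, since PS replicates 1 and 3 were its highest livers. CS replicate 2 was the lowest liver for 21 of the 43 members (48.8%, against 26.0% of all genes).

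**Figure D4:**
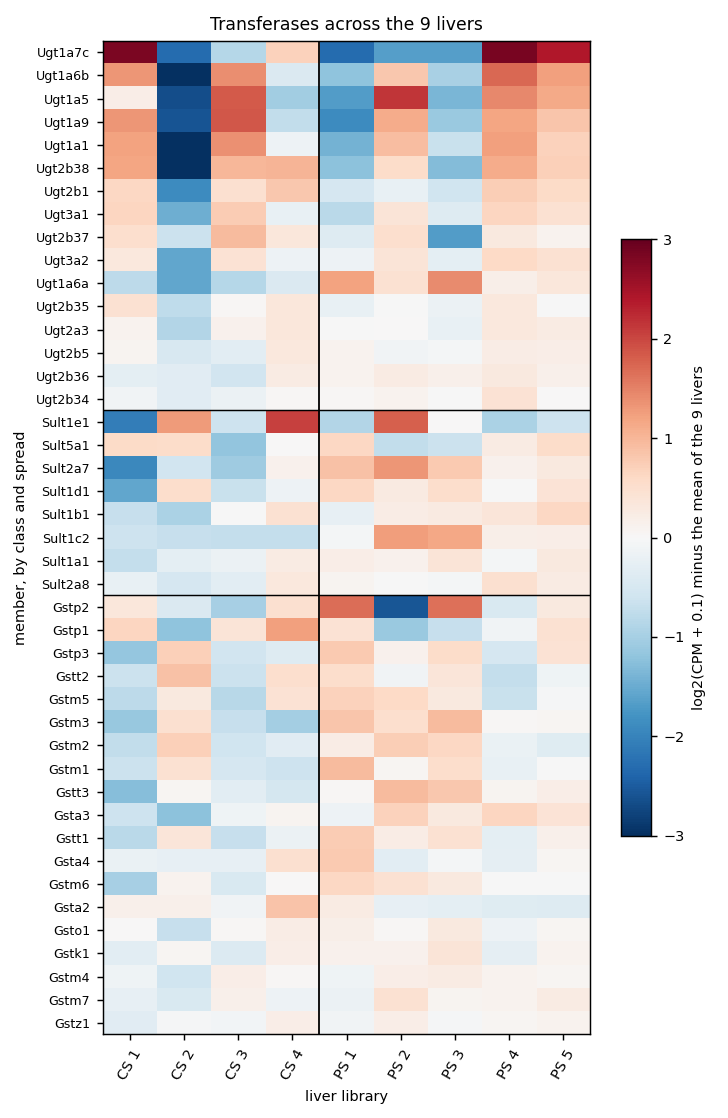
Colour map of the 43 members tested in the liver (rows) in 9 livers (columns), showing log2(CPM + 0.1) minus the mean of the row. Most UGT rows are low in CS replicate 2 and in PS replicates 1 and 3, whereas Ugt1a6a is high in those PS livers.

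In the lung, 1 member rose with PS (Sult5a1) and 2 fell (Ugt1a6b and Ugt1a7c) at an edgeR adjusted p under 0.05, out of 27 tested, while 4.8% of all genes were higher and 4.43% lower. At an unadjusted p of at most 0.05, 4 members were higher (15.6% of all genes) and 4 lower (14.5%), shares near the background. The median log2 fold change was -0.0011 for the members and 0.0052 for all genes. With all PS lungs above all CS lungs there were 3 members, Sult5a1, Gstt2 and Gstm1 (17.3% of all genes), and with all PS lungs below all CS lungs there were 3, Gsta3, Ugt1a7c and Ugt1a6b (18.8% of all genes).

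Ugt1a6b and Ugt1a7c, which conjugate phenols, are alternative first-exon genes of the Ugt1a locus. Ugt1a6b had 19, 24 and 26 fragments in the CS lungs and 1, 0 and 0 in the PS lungs. The PS total of 1 against 69, scaled for depth, was 1.58% of the CS level, with an exact 95% interval of 0.0394% to 9.09% that covers counting error only. Ugt1a7c had 16, 32 and 31 fragments in CS and 1, 1 and 1 in PS, or 4.14% of the CS level (0.835% to 12.5%). The groups were far apart in both genes, although the counts were low. Both genes passed the filter on low counts through the CS lungs alone, so only members that were low in PS could enter in this way. The fitted log2 fold changes, which depend on the prior count at such levels, were -5.55 (SE 0.79, edgeR adjusted p 0.0172) and -4.45 (SE 0.61, adjusted p 0.0163). Ugt1a6a at the same locus had 9, 16 and 16 fragments in CS and 15, 12 and 17 in PS, with overlapping groups (0.22, SE 0.44, edgeR adjusted p 0.769). In the liver neither Ugt1a6b (0.17, SE 0.82) nor Ugt1a7c (0.18, SE 1.31) was called.

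The Ugt1a locus (chr1:88055388-88220002, plus strand, mm10) strings 9 genes together that, in GENCODE M21, start at different first exons and share the last ones. The bases that no other gene on that strand shares by position are 938 bases in 1 block for Ugt1a6b (chr1:88106862-88107799), 917 bases at chr1:88095062-88095978 and 998 bases at the far end of the locus, chr1:88219005-88220002, for Ugt1a7c, and 2142 of 4312 exon bases for Ugt1a6a. Of the last, 127 bases lie at chr1:88134809-88134935 and 95 at chr1:88138378-88138472, and the other 3 blocks (619, 255 and 1046 bases between 88215176 and 88217403) lie among the shared exons, in stretches that are intron in the other genes. The transcripts of Ugt1a6a and Ugt1a6b are 98.9% identical over 2297 aligned bases, and those of Ugt1a6a and Ugt1a7c are 100% identical over 2297 bases, of which 2170 are exon bases that the gene models share by position. The other 127 are the Ugt1a6a block at its start, which has a copy without mismatch at chr1:88103252-88103378, so that block cannot tell the genes apart by sequence. Counts of the 3 genes are therefore uncertain as measures of a single gene, in the liver as in the lung. The opposite gene model Gm20528 overlaps the locus, and without a stated strand setting its reads cannot be told from those of the Ugt1a genes.

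The starts of Ugt1a7c and Ugt1a6a are shown because these neighbours at 1 locus differed in where diet groups separated, Ugt1a7c in the lung and Ugt1a6a in the liver. Each line gives 250 bases before and 50 bases from the RefSeq start (GRCm38.p6, the mm10 assembly), read 5′ to 3′ on the gene's strand, with the start base in capitals. RefSeq promoters were found for 56 of the 64 members, and Ugt1a6b was not among them.
Ugt1a7c, chr1:88094751-88095050, plus strand: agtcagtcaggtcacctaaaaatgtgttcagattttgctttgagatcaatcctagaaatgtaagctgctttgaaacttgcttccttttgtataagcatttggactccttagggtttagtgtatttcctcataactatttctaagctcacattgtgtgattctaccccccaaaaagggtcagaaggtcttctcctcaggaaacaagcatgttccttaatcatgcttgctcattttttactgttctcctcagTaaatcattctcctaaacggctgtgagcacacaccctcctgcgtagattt
Ugt1a6a, chr1:88134559-88134858, plus strand: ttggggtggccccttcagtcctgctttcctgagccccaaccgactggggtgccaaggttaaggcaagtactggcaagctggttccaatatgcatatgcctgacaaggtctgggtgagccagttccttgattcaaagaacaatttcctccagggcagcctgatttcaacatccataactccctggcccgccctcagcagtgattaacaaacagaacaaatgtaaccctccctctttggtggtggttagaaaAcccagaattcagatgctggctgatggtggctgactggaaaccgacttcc
Neither window holds the antioxidant response core TGACNNNGC, the dioxin response core GCGTG, the E-box CACGTG or the box TATAAA on either strand (the dioxin core and the E-box share the letters CGTG).

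Sult5a1, a little-studied sulfotransferase (chr8:123140192-123158315, minus strand, mm10), had 5.16, 7.35 and 6.40 CPM in the CS lungs and 13.3, 38.5 and 44.6 CPM in the PS lungs, from 102 to 143 and from 225 to 809 fragments. All PS lungs were above all CS lungs, with PS replicate 1 the closest to the controls. The log2 fold change was 2.35 (SE 0.41, edgeR adjusted p 0.0218). The livers had 2.79 to 9.77 CPM in CS and 3.87 to 10.04 CPM in PS, with no difference called (-0.03, SE 0.40). The Sult5a1 start is printed as that of the 1 member called higher in the PS lung by edgeR over all 6 lungs.
Sult5a1, chr8:123158231-123158530, minus strand: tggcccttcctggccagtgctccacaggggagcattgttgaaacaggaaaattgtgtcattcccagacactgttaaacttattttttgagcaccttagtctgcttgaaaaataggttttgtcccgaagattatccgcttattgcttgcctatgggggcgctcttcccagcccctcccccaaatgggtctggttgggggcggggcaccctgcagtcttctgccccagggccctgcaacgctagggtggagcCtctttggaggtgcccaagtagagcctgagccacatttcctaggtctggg

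All 3 lung calls depended on which mice were included, while the fitted folds kept their sign and much of their size. Omitting 1 lung at a time, the log2 fold change ran from 2.04 to 2.71 for Sult5a1, from -7.50 to -5.09 for Ugt1a6b and from -4.74 to -4.25 for Ugt1a7c. Ugt1a7c alone was past the adjusted threshold when CS replicate 1 was omitted, and no member was past it when the omitted lung was CS replicate 2 or 3, or the lung PS replicate 2. Calls over all genes fell as well, from 802 higher and 740 lower with all lungs to 1 and 22 without CS replicate 1. They were 1 and 25 without CS replicate 2, 0 and 0 without CS replicate 3, and 2 and 7 without PS replicate 2. Omitting the lung PS replicate 1 gave 1 higher and 4 lower members (Gsto1 and Sult1d1 joined), and omitting the lung PS replicate 3 gave 2 higher and 3 lower (Gstt1 and Gsta3 joined). Over all genes these 2 fits called 1752 higher and 1197 lower, and 947 higher and 1309 lower. Over these fits the edgeR adjusted p ran from 0.00275 to 0.102 for Sult5a1, from 0.00793 to 0.0766 for Ugt1a6b and from 0.00985 to 0.0766 for Ugt1a7c.

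**Figure D5:**
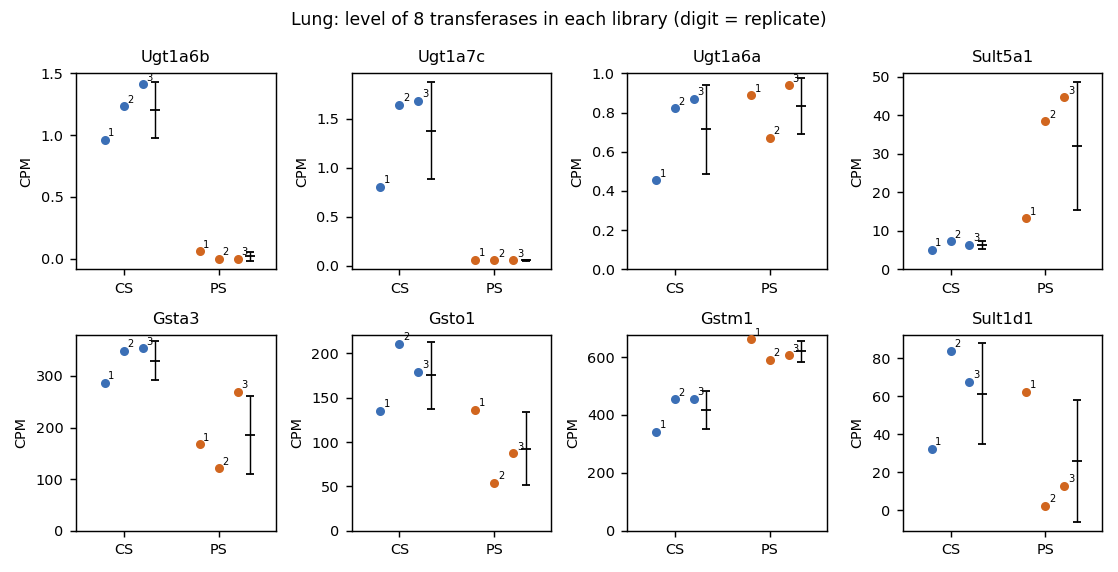
CPM of 8 members in each lung (CS, n = 3; PS, n = 3), with the digit giving the replicate and the bar the mean ± SD. Ugt1a6b and Ugt1a7c sit at or near 0 in all PS lungs, Sult5a1 is above all CS lungs in all PS lungs, and Sult1d1 is low in PS replicates 2 and 3 only.

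Other lung members missed the adjusted threshold in edgeR. Gstt2, of the theta class, had 23.6, 25.1 and 27.4 CPM in CS and 33.8, 30.8 and 31.6 CPM in PS, higher in all PS lungs (0.34, SE 0.14, edgeR adjusted p 0.144). Gstm1 had 343, 454 and 457 CPM in CS and 662, 591 and 607 CPM in PS, higher in all PS lungs (0.57, SE 0.17, edgeR adjusted p 0.0678). Gsta3 had 286, 349 and 354 CPM in CS and 167, 121 and 270 CPM in PS, lower in all PS lungs (-0.83, SE 0.27, edgeR adjusted p 0.0825). Gsto1 had 135, 211 and 179 CPM in CS and 136, 53.9 and 87.4 CPM in PS, where PS replicate 1 touched the lowest control (-0.92, SE 0.31, adjusted p 0.0875 by edgeR). DESeq2's Wald test called Gstm1, Gsta3 and Gsto1 in addition. Sult1d1, which sulfates catecholamines, had 32.4, 84.0 and 67.7 CPM in CS and 62.4, 2.40 and 13.0 CPM in PS, where PS replicate 1 lay within the CS range (-1.24, SE 1.11, edgeR adjusted p 0.499).

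Cell type marker levels also differed between the lungs. Summed fat cell markers were 111, 150 and 22.5 CPM in CS and 118, 10.4 and 7.50 CPM in PS, and the upper airway secretory genes Scgb3a1 and Bpifa1 were at 9.82 and 3.01 CPM in PS replicate 2 and at 16.1 and 15.5 CPM in PS replicate 3, against 185 or more in all other lungs. Scgb3a2 of the club cell list shared this pattern, with 428 CPM in PS replicate 2 and 715 CPM in PS replicate 3, against 1216 to 1963 CPM in the other lungs. Scgb1a1 (46278 CPM) and Cyp2f2 (2827 CPM) lay within the CS range in PS replicate 3, while PS replicate 2 was the lowest lung for both. The 5 heart muscle markers summed to 32.4 and 69.4 CPM in these PS lungs, against 158 to 237 CPM in CS and 416 CPM in PS replicate 1, and the 6 ciliated cell markers were lowest in PS replicate 2 (482 CPM, against 773 to 1137 CPM in the other lungs). Sult1d1 was low and Sult5a1 was highest in PS replicates 2 and 3, the libraries with low Scgb3a1, Bpifa1 and heart muscle genes. The part of those genes in either level was not tested. PS replicate 1 had the highest Scgb3a1 level of all lungs (790 CPM) and a fat marker sum within the CS range, and it held 1 fragment each of Ugt1a6b and Ugt1a7c. The 7 alveolar type II markers summed to 19936 to 20777 CPM in CS and to 22058 to 34835 CPM in PS, with every PS lung above every CS lung. Sftpc made up most of that sum (12878 to 13892 CPM in CS and 16305 to 27052 CPM in PS), whereas Abca3 of the same list was lower in every PS lung (194 to 198 CPM in CS and 62.0 to 147 CPM in PS) while Napsa (226 to 234 and 262 to 419 CPM) and Sftpb (2241 to 2304 and 2323 to 2359 CPM) were higher in every PS lung, and Sftpa1, Sftpd and Lamp3 overlapped between diets. The part of these markers in the lung values of the members was not tested. The 5 club cell markers summed to 45414, 47894 and 69349 CPM in CS and 69846, 36406 and 49852 CPM in PS, with overlap between diets.

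The diet effect was then compared between the tissues. At the adjusted threshold no member differed in edgeR (0.00565% of all genes had a higher effect in the lung and 0.017% a lower one). DESeq2's Wald test called 4 members, Sult5a1, Gsta3, Ugt2b34 and Ugt2b36. At an unadjusted p of at most 0.05, 1 member had a higher effect in the lung (5.54% of all genes) and 11 a lower one (5.4%). Of these 11, 5 (Sult1b1, Ugt2b5, Ugt2b34, Ugt2b36 and Ugt3a2) had entered the fit through the liver alone, with at most 19 fragments in any lung, so that a diet effect in the lung could hardly be measured. Among the 25 members that passed the filter in both tissues, 1 was higher and 6 were lower, while 5.72% and 5.68% of such genes were. The higher one was Sult5a1, whose difference was 2.32 (SE 0.63, edgeR adjusted p 0.253). Among the lower ones, Gsta3 had opposite signs in the tissues, 0.79 in the liver and -0.83 in the lung, a difference of -1.66 (SE 0.47, adjusted p 0.270 by edgeR). Ugt1a6a differed by -1.51 (SE 0.56) and Gsto1 by -1.11 (SE 0.40). Those of Ugt1a6b and Ugt1a7c rest on the low counts given above, and the values of Ugt2b5, Ugt2b36 and Ugt3a2 rest on the few lung fragments of CS replicate 1 described above.

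The Gsta3 start is shown for this contrast between tissues, with the start base and a match to the antioxidant response core TGACNNNGC in capitals.
Gsta3, chr1:21240335-21240634, plus strand: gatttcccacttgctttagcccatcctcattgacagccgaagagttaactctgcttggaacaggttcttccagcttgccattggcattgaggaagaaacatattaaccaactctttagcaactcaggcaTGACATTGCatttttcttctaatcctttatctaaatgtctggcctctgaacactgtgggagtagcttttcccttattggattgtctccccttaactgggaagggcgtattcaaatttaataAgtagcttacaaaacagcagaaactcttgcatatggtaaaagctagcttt
The match, TGACATTGC, starts 121 bases before the RefSeq start. The core occurred on either strand in 3 of the 56 member promoters (Gsta3, Gstm5 and Gstm7), or 5.36%, and in 12.4% of all 32851 promoters in the table. The dioxin response core GCGTG occurred in 19.6% of member promoters against 32.4% of all, the E-box CACGTG in 0% against 7.15%, and TATAAA in 14 of the 56 against 13.6%. Such a match is a run of letters and not a measured site.

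Genes that feed, regulate or complete the conjugation reactions were read from 7 lists, with a few genes in more than 1 of them. In the liver 76 genes were tested, of which 8 were higher and 4 lower in PS at an unadjusted p of at most 0.05 (3.96% and 3.58% of all genes), and 0 passed the adjusted threshold. The glutathione supply list (12 of 15 tested) had 2 higher genes, Gclm (0.38), the modifier subunit of glutathione synthesis, and Chac2 (0.65), which degrades glutathione, and 1 lower, Oplah (-0.58), which recycles 5-oxoproline. For glucuronidation, Ugp2, which makes UDP-glucose, went from 181 ± 48.6 to 326 ± 57.3 CPM (0.85) and was the only 1 of 6 genes past that threshold. For sulfation, Papss1, a PAPS synthase, had a median of 5.68 CPM in CS and 8.24 CPM in PS (0.61), the only 1 of 11. The conjugate transport list had 2 of 15, the bile acid importer Slc10a1 (0.86) and the efflux pump Abcb1a (1.54). The NRF2 list of regulators and targets (16 of 18 tested) had Gclm and Maff (1.33) higher and Keap1 (-0.35) and Srxn1 (-0.62) lower, and the list of xenobiotic receptors (13 tested) had Ahr (0.46) higher and Rxrb (-0.46) lower. None of the 6 tested genes among other glutathione-linked transferases passed.

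In the lung 73 genes of these lists were tested, with 0 higher (4.8% of all genes) and 5 lower (4.43% of all genes) at an edgeR adjusted p under 0.05. All 5 calls were lost when any CS lung or PS replicate 2 was omitted, fits in which few genes of any kind were called, as given above. The counts ran from 0 to 3 higher and from 0 to 9 lower over the omitted lungs. DESeq2's Wald test called 3 of the list genes higher and 8 lower. Bpnt1 (-0.87, adjusted p 0.0471) and Impad1 (-0.63, adjusted p 0.0417), phosphatases that clear the by-product of sulfation, and the sulfate transporter Slc26a2 (-0.80, adjusted p 0.0407) made up 3 of the 10 sulfate donor genes tested. The others were the NRF2 target Txnrd1 (-0.88, adjusted p 0.0353), a thioredoxin reductase, and the fatty acid receptor Ppara (2.50 ± 0.288 CPM in CS and 0.618 ± 0.280 CPM in PS, adjusted p 0.0312). Median log2 fold changes ran from -0.44 for xenobiotic receptors to 0.14 for other glutathione-linked transferases, against 0.01 for all genes.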

How the data were processed

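RNA of frozen liver and lung was extracted with TRIzol, enriched for poly-A mRNA and sequenced in paired ends. Per the labels and methods, the authors cleaned the reads, aligned them to mm10 with HISAT2 2.0.5 and counted them with featureCounts 1.5.0-p3, and they used DESeq2 1.20.0 for their own comparisons. The deposited counts per gene were the input here. The deposited FPKM values, which the authors scaled by gene length and library, served in an alternative, and the deposited gene length (an other unit, in bases) gave RPKM. Columns of other samples numbered 0.

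Counts were fitted with the quasi-likelihood test of edgeR 4.0.16 in R 4.3.3, with TMM factors and the filter filterByExpr, over all genes passing in a tissue, with Benjamini-Hochberg adjustment over all of them. Both tissues were fitted together for the tissue difference and the interaction. Alternatives used DESeq2 1.42.0, limma 3.58.1 on log2(FPKM + 1) and log2(FPKM + 0.1), other filters and scalings, blocks, and omission of each library. Fits were also run on simulated counts with the same spread set for every gene, which does not represent the differing spreads of the members. Within a tissue each library was a separate mouse, so the diet p-values measure the spread between mice, all of them of 1 inbred strain. The main fit of both tissues left out that 6 mice gave both, and its p-values treat their libraries as independent. Mouse labels pair the tissues of 6 mice, and no litter or day is given for the replicate numbers of CS and PS. The labels' age and the feeding times in the methods could not be reconciled and no duration is given.

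Named genes were members past the adjusted threshold in the lung or the interaction, members past the unadjusted threshold in the liver, the highest member of each subfamily per tissue, the members with the largest tissue differences, and list genes past the same thresholds; others named were chosen after their values were seen. Members and lists were chosen with earlier results of these data known. Overlaps came from GENCODE M21, in which 60 of the 64 members had the file's start and end.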

Additional observations from a re-analysis of the deposited data

Results flagged for a closer look

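In 3 cases a liver stood apart from the others of its diet by a gap test (Dixon, at the 95% level). Gstm1 was at 1513 CPM in CS replicate 2, with the other CS livers at 704 to 783 CPM. Gsta4 was at 40.5 CPM in CS replicate 4, with the others at 24.2 to 25.3 CPM, and at 49.5 CPM in PS replicate 1, with the other PS livers at 23.3 to 29.8 CPM. Such a gap was found in 3 of the 62 groups looked at, and chance gives about 1 in 20.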

How the results depend on the processing

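For 52 named genes and comparisons, 962 values were recomputed under alternatives, of which 864 kept direction and side of the threshold, 81 lost it, 12 gained it and 5 changed sign. Over all members tested, 47 of 164 values, each a member in 1 comparison, changed sign under at least 1 alternative. The 5 were Ugt1a6a in the lung without CS replicate 1 (-0.0518, within a range of -0.0518 to 0.4096 over the omitted lungs), Gsta4 between tissues without lung PS replicate 1 (-0.0808, within -0.0808 to 0.214), and, with library totals, Gsto1 (0.53), Gstm2 (0.97) and Sult5a1 (1.02) between tissues. Of 198 recomputed counts of members or list genes, 160 were within 1.5 times.

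With DESeq2's Wald test, 2 members were higher and 4 lower in the PS lung, 4 differed in diet effect between tissues, and 3 list genes were higher and 8 lower in the lung. With at least 10 counts in every library, which leaves 20 members in both tissues, 0 members were lower in the PS lung, because this filter removes Ugt1a6b and Ugt1a7c for their PS counts, and 0 were higher and 17 lower in the lung than in the liver. Library totals gave 6 members higher in the lung (Sult2b1, Gsto2, Gsta4, Gsto1, Gstm2 and Sult5a1). Limma-trend on FPKM gave 2 lower list genes in the lung with either pseudocount. Removing each library's GC or length trend, added after seeing the data, gave 8 or 7 higher and 0 or 1 lower members in the liver, and 1 higher and 2 or 3 lower in the lung, and the length trend gave 1 higher list gene in the lung. The causes were not tested.

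The replicate block gave 6 higher and 0 lower members in the liver, 5 higher and 1 lower list genes there, and 1 higher and 3 lower members in the lung. Same-numbered livers deviated from their group means with correlations of -0.36 to -0.03 and lungs with -0.01 to 0.10. The liver and lung of the same mouse gave only -0.03 to 0.09, so this check cannot tell whether the numbers pair the mice. With the mouse as a block, fitted on the 6 mice with both tissues, 2 members were higher and 39 lower in the lung of 46 tested, and 0 differed in diet effect.

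Leaving out 1 library at a time gave 5 to 12 higher and 0 to 1 lower members in the PS liver, 0 to 2 higher and 0 to 4 lower in the PS lung, 0 to 0 with another diet effect, and 2 to 2 higher and 41 to 42 lower in lung than liver. For list genes the ranges were 6 to 12 higher and 3 to 9 lower in the liver and 0 to 3 higher and 0 to 9 lower in the lung. Depth limits the lung Ugt1a genes, all below 40 fragments a library.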
